A study of Mus musculus with 30 samples.

Results

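The genes described here are 10 that encode secreted cytokines of inflammation: Tnf, the interleukin-1 family genes Il1a, Il1b, Il1rn and Il33, the interleukin-6 family genes Il6, Il11 and Lif, and Il23a and Tslp. They were chosen by name from the 49315 genes of a count table, and all 10 were among the 17774 genes that passed a filter on low counts. Their mRNA was measured in 30 RNA-seq libraries of 4T1-tdTomato cells, a BALB/c mammary carcinoma line marked with a red fluorescent protein and sorted from female hosts as live, CD45-negative, tdTomato-positive cells. There were 5 libraries in each of 6 groups. BALB/c tumour (days 21 and 22) and NSG tumour (day 10) came from the mammary fat pad after implantation of 200000 cells. The lung groups followed tail vein injection of 500000 cells: BALB/c DTC and NSG DTC (both day 7; the abbreviation is not expanded in the labels), BALB/c macro-met (days 21 and 23) and NSG macro-met (days 19 and 20). BALB/c hosts are immunocompetent, and NSG hosts lack T, B and NK cells. Organ, route and cell number differ together between tumour and lung groups, and the tumours of the hosts differ in day, so these cannot be told apart from stage and host. The line is 1 transplanted line, and nothing in the labels says that libraries came from different animals, so p-values measure only the spread between libraries.

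Cytokines are short-range signals, and most of these are made in bursts. TNF and IL-1 bind receptors that switch on NF-kB, and NF-kB in turn drives transcription of many cytokine genes and of its own inhibitors. The IL-6 family (IL-6, IL-11 and LIF) signals through the shared chain encoded by Il6st to STAT3. Many of these mRNAs are short-lived because AU-rich elements in their 3′ UTRs recruit decay factors such as the protein encoded by Zfp36. IL-1α, IL-33 and TSLP are epithelial alarm signals, released by stressed or damaged barrier cells.

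In GRCm38 with the GENCODE M21 annotation the genes lie as follows. Tnf (ENSMUSG00000024401, chr17:35199381-35202007, minus strand) encodes the founding member of the TNF family. Il1a (ENSMUSG00000027399, chr2:129299610-129309972, minus strand) and Il1b (ENSMUSG00000027398, chr2:129364570-129371139, minus strand) encode the agonists of the IL-1 receptor, and Il1rn (ENSMUSG00000026981, chr2:24336853-24351494, plus strand) encodes its antagonist. Il33 (ENSMUSG00000024810, chr19:29925114-29960718, plus strand) encodes the ligand of the receptor ST2. Il6 (ENSMUSG00000025746, chr5:30013114-30019981, plus strand), Il11 (ENSMUSG00000004371, chr7:4772373-4782859, minus strand) and Lif (ENSMUSG00000034394, chr11:4257557-4272514, plus strand) are the IL-6 family members. Il23a (ENSMUSG00000025383, chr10:128296139-128298752, minus strand) encodes the specific subunit of IL-23, and Tslp (ENSMUSG00000024379) encodes thymic stromal lymphopoietin. Noncoding genes on the opposite strand overlap Il1a (Gm14023, 348 counts over all libraries), Il1b (Il1bos, 81 counts) and Tslp (4930455D15Rik, 65 counts). The strand setting of the counting was not stated, so reads of such pairs cannot be told apart, but the 3 partners were small beside their cytokine genes (5665, 4856 and 64237 counts for Il1a, Il1b and Tslp).

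The AU-rich nonamer TTATTTATT was searched in the longest annotated 3′ UTR of each member, because it is a classical mark of unstable cytokine mRNA. It was found in 4 of the 10 members, with 5 copies in Tnf, 5 in Il11, 2 in Lif and 1 in Il23a, counting overlapping copies. Of all tested genes with an annotated 3′ UTR, 1109 of 14096 (7.87%) held it. The shorter pentamer ATTTA was in 9 of the 10 members, with 8 copies in Tnf, 10 in Il6 and 10 in Il11, and with none in Il1rn. A stretch of the GRCm38 genome from each carrier is shown so that the arrangement of the copies can be compared. The nonamer copies are in capitals.
Tnf, chr17:35199679-35199708, minus strand: aTTATTTATTATTTATTTATTATTTATTta
Il11, chr7:4773504-4773533, minus strand: ttaaaaccagatcTTATTTATTTATTTATT
Lif, chr11:4272033-4272062, plus strand: agaagcaaaggggcctTTATTTATTattta
Il23a, chr10:128296187-128296216, minus strand: agtatagatgatggTTATTTATTctattta
The Tnf stretch holds overlapping and adjacent copies with almost no other sequence, whereas the Lif and Il23a stretches hold 1 copy each.

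Promoters from RefSeq on GRCm38.p6 were matched for 8 of the 10 members (12 start sites), all but Il23a and Tslp. In the window from 250 bases before to 50 after the start, the AP-1 site TGANTCA was found on either strand in 5 of the 8 genes: Il1a, Il1rn, Il6, Il11 and Lif (in 1 start only of Il1rn and of Il11). The same motif was in 7.81% of 32851 promoters. The NF-kB consensus was found in Il6 and Lif, against 8.46% of promoters, and overlapped no AP-1 match. The STAT site TTCNNNGAA (8.3% of promoters) and the glucocorticoid receptor consensus (0.475%) had no match in any of the 8. The 250 bases before the start are shown for Il1a, Il11 and Lif, which were called higher in BALB/c DTC than in BALB/c tumour, and for Il33, which went the other way in macro-mets. Capitals mark AP-1 matches and, in Lif, also the NF-kB match.
Il1a, chr2:129309973-129310222, minus strand: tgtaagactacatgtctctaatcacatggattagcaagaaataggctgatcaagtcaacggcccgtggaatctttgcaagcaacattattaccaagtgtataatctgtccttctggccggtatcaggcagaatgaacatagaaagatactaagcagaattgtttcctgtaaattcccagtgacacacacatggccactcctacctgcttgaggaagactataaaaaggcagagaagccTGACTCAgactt
Il11, chr7:4778142-4778391, minus strand: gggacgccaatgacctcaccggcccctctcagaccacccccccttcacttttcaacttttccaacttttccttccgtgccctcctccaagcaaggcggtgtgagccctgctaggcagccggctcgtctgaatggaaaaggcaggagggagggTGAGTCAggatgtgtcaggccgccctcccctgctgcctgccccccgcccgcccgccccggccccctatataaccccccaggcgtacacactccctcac
Lif, chr11:4257318-4257567, plus strand: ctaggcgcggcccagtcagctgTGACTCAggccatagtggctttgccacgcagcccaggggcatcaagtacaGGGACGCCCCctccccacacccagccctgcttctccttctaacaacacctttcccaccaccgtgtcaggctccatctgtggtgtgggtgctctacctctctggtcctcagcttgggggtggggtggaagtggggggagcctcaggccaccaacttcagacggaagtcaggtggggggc
Il33, chr19:29924863-29925112, plus strand: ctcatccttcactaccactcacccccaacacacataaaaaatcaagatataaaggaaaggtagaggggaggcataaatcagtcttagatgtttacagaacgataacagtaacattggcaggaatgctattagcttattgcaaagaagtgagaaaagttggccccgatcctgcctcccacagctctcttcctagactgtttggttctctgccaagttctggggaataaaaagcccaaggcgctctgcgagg
The AP-1 match lay 12 to 6 bases before the start in Il1a, 98 to 92 before it in Il11, and 228 to 222 before it in Lif, where the NF-kB match followed at 178 to 169. These matches describe the letters of the windows only.

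Total counts were 29832098 to 65621525 per library, and 17517 to 22187 genes had a count. The mammary epithelial markers, 10 genes led by Krt8 and Krt18, summed to 4634 to 10592 CPM (counts scaled to TMM-corrected library size) over all libraries, and Ptprc, which encodes CD45, was at 0.0369 to 6.62 CPM. Markers of other cell types were high in some libraries. The 16 lung epithelial markers, led by Sftpc, summed to 160 to 3827 CPM in BALB/c DTC and 70.4 to 92.7 in NSG DTC, and 2 BALB/c DTC libraries (replicates 1 and 2) had most of it. In tumours the same sum was 28.2 to 117 CPM in BALB/c and 37.4 to 54.5 in NSG hosts, with Scgb3a2 and Nkx2-1 at 0 in both. BALB/c tumour replicate 4 stood apart in skeletal muscle markers (864 CPM) and had the fewest detected genes. Departures of libraries from the mean followed the GC content of genes, with rank correlations from -0.594 to 0.442. This trend ran with group. In BALB/c hosts the values were -0.268 to -0.111 in tumours, -0.095 to 0.442 in DTC and 0.056 to 0.389 in macro-mets. In NSG hosts they were -0.201 to 0.035, -0.594 to -0.311 and 0.19 to 0.4 in the same order. Each member was therefore also fitted with GC and length offsets. In bulk samples, fewer cells of a type and less RNA per cell cannot be told apart.

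On the TPM scale, which corrects for gene length, the mean over all 30 libraries was 165 for Lif, 138 for Il23a, 106 for Tslp, 42.8 for Il33, 39.3 for Tnf, 8.79 for Il11, 5.65 for Il1a, 4.87 for Il1b, 0.717 for Il6 and 0.660 for Il1rn. The libraries therefore held much Lif, Il23a and Tslp mRNA and little of the IL-1 pair. Il6 had no count in 4 of 30 libraries and Il11 in 1, and in the others Il6 had at most 122 counts. Values below are CPM per library in replicate order unless another scale is named.

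**Figure D1:**
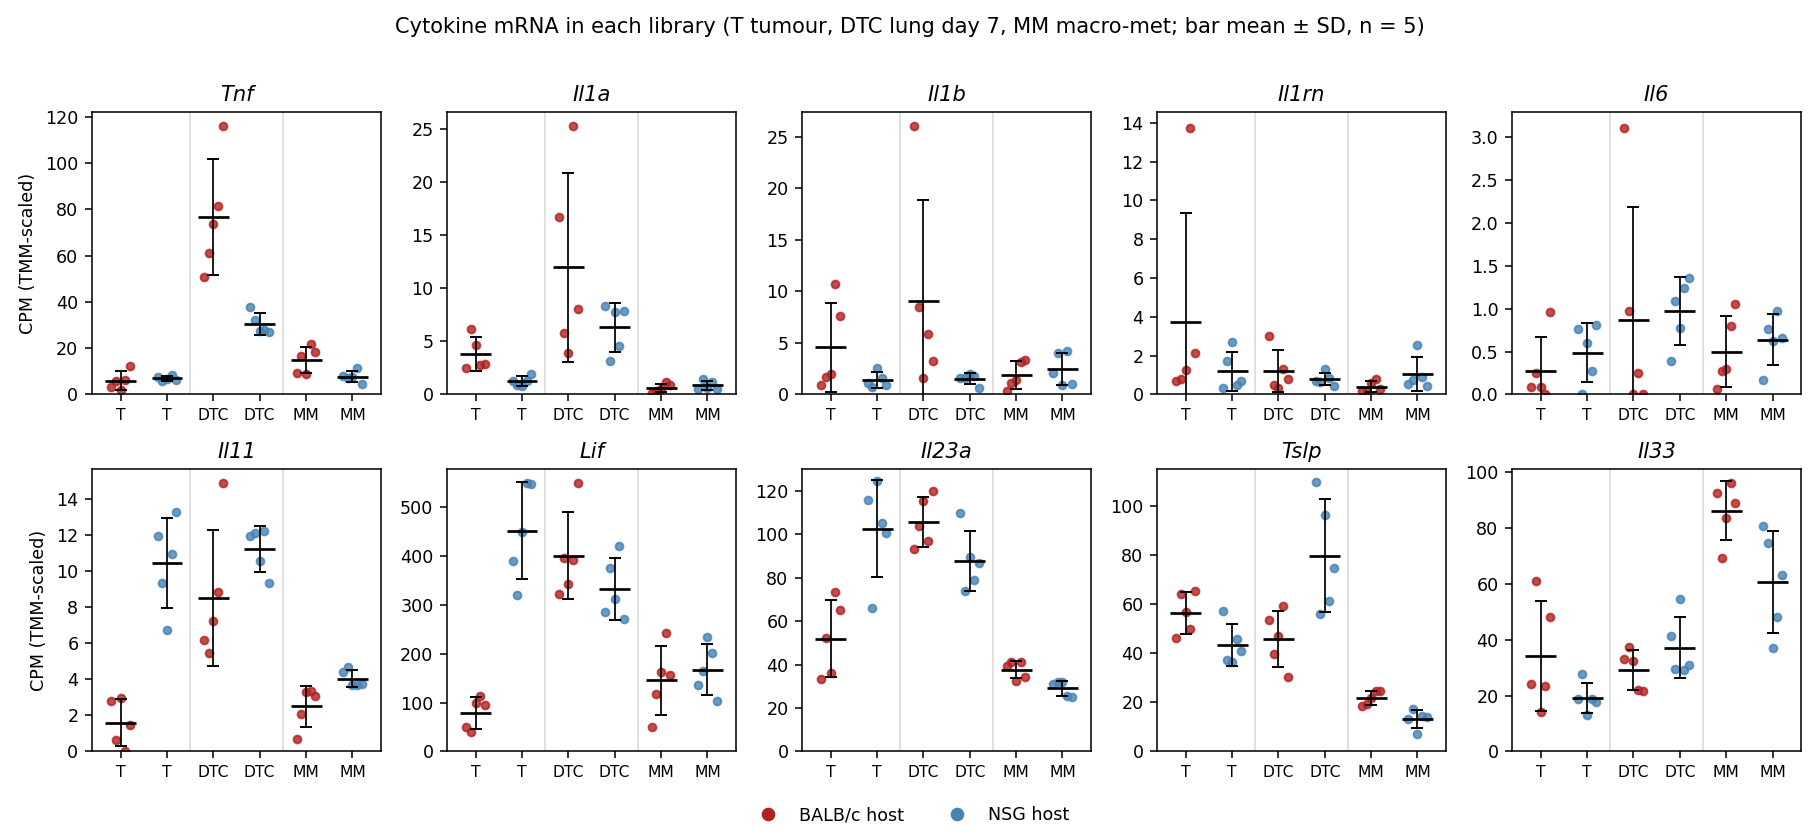
CPM (TMM-scaled) of each cytokine gene in each library, with 1 panel per gene and its own linear axis from 0; T is tumour, DTC lung at day 7 and MM macro-met, red is BALB/c and blue NSG, and bars are mean ± SD (n = 5). Tnf peaked in DTC of both hosts, at 76.6 CPM in BALB/c and 30.4 in NSG, whereas Il33 was highest in macro-mets.

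The first question was how tumour cells early in the lung differed from those of the mammary tumour. In BALB/c hosts 5 of the 10 genes were called higher in DTC (Tnf, Il1a, Il11, Lif and Il23a) and 0 lower, at an adjusted p under 0.05 by edgeR's quasi-likelihood test. Of all 17774 genes 41.4% were called, 20.4% higher and 21% lower, so the number of cytokine genes called was near the background share. The median log2 fold change was 1.31 over the 10 genes and -0.09 over all genes. For 4 of the 10 the libraries of DTC and tumour did not overlap, against 21.7% of all genes. In NSG hosts 4 were called higher (Tnf, Il1a, Tslp and Il33) and 0 lower, against 16% and 9.55% of all genes (25.5% called), with medians of 0.51 and 0.06. NSG DTC and tumour libraries did not overlap for 3 of the 10 genes (Tnf, Il1a and Il33), against 25.4% of all genes. Tnf and Il1a were called in both hosts.

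The second question was how macro-mets differed from DTC. In BALB/c hosts 7 genes were called lower in macro-mets (Tnf, Il1a, Il1b, Il11, Lif, Il23a and Tslp) and 1 higher (Il33), where 30.8% of all genes were called, 14.2% lower and 16.6% higher. The medians were -1.53 over the 10 genes and -0.04 over all genes. In NSG hosts 6 were called lower (the same without Il1b) and again Il33 higher, where 43.7% of all genes were called, 22.4% lower and 21.3% higher, with medians of -1.23 and 0.02. The libraries of the 2 stages did not overlap for 7 of 10 genes in BALB/c hosts (22.7% of all genes) and for 6 of 10 in NSG hosts (37.7%). This comparison and the previous one share the DTC libraries, so a high DTC value enters both.

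Macro-mets were also set against tumours. In BALB/c hosts Tnf, Lif and Il33 were called higher, and Il1a, Il1rn, Il23a and Tslp lower. Of all genes 37.8% were called, 19.6% higher and 18.2% lower, and libraries did not overlap for 3 of the 10 genes (23.2% of all genes). In NSG hosts Il33 was called higher, and Il11, Lif, Il23a and Tslp lower, where 30.5% of all genes were called, 16.9% higher and 13.6% lower. All 5 of these were without overlap, against 25.4% of all genes. The Il11 call was near the threshold (log2 -1.37 ± 0.51, adjusted p = 0.042) and was lost without any 1 of 9 of the 10 libraries compared. Tslp and Il23a were below and Il33 was above the tumour level in both hosts.

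**Figure D2:**
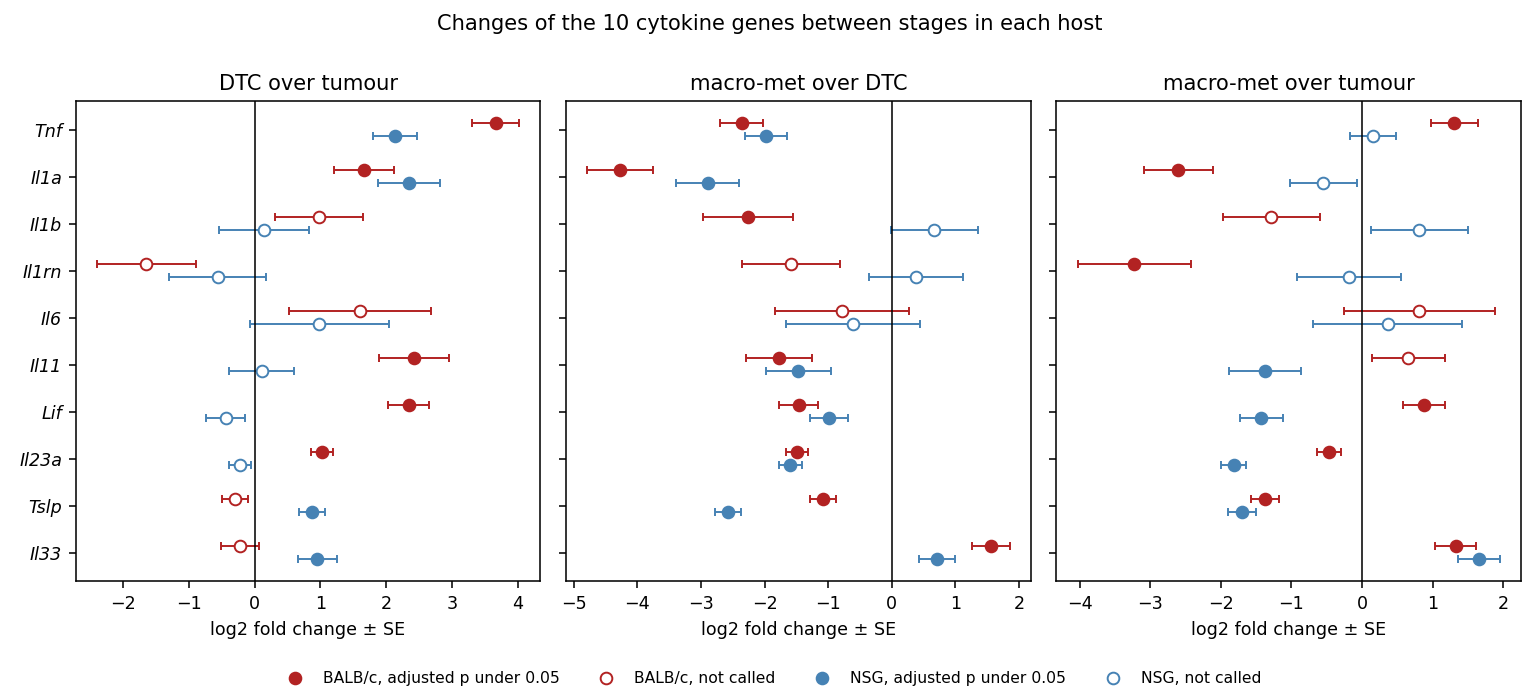
Log2 fold change ± SE of each gene from the edgeR fit, with DTC over tumour, macro-met over DTC and macro-met over tumour in 3 panels, red for BALB/c and blue for NSG hosts, and filled points for adjusted p under 0.05. In the middle panel Il33 is the only gene to the right of 0 with a filled point, and 7 BALB/c and 6 NSG points are filled to the left.

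Tnf encodes the trimeric ligand of the receptors encoded by Tnfrsf1a and Tnfrsf1b. Tnf was in BALB/c hosts at 50.6, 61.2, 73.8, 81.3 and 116 CPM in DTC, against 3.40, 5.77, 1.88, 6.45 and 12.5 in tumours. It was 12.7-fold higher in DTC (log2 fold change 3.67 ± 0.36, adjusted p = 4.99e-09), with every DTC library above every tumour library. In NSG hosts it was at 37.7, 32.4, 27.4, 27.8 and 26.9 CPM in DTC, against 7.45, 5.98, 6.54, 8.28 and 6.39 in tumours, 4.39-fold higher (log2 2.13 ± 0.34, adjusted p = 3.95e-05), again without overlap. Macro-mets were lower than DTC in both hosts, at 9.12, 16.5, 8.95, 21.7 and 18.2 CPM in BALB/c (log2 -2.36 ± 0.34, adjusted p = 3.99e-06) and 7.96, 7.33, 7.61, 11.4 and 4.46 in NSG (log2 -1.98 ± 0.33, adjusted p = 1.83e-05). BALB/c macro-mets stayed 2.48-fold above BALB/c tumours (log2 1.31 ± 0.33, adjusted p = 0.00269), with libraries that overlapped. In NSG hosts macro-mets and tumours differed by log2 0.16 ± 0.33, adjusted p = 0.768 (95% interval -0.52 to 0.83).

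Macrophages are a rich source of Tnf in tissue, so their markers were set beside it. The 15 markers of macrophages and monocytes summed in BALB/c hosts to 69.7 to 185 CPM at the tumour stage, 97.7 to 725 at the DTC stage and 68.4 to 122 at the macro-met stage. In NSG hosts the sums were 39.7 to 70.1, 64.8 to 125 and 79.0 to 119 CPM at the same stages in that order. No marker was at 0 in all libraries of a group. In DTC over tumour 1 of the 15 was called higher and 3 lower in BALB/c hosts (median log2 fold change -0.94). In NSG hosts 2 were higher and 3 lower (median -0.46). In macro-met over DTC 4 were higher and 2 lower in BALB/c (median -0.25), and 3 higher and 0 lower in NSG hosts (median 1.00). In BALB/c over NSG DTC 3 were higher and 0 lower (median 0.58). Within BALB/c DTC, Lyz2, a lysozyme gene of the macrophage and monocyte list, was at 610, 216, 19.0, 60.8 and 12.2 CPM. Its order over the replicates was that of Sftpc, a lung epithelial marker, at 2230, 985, 60.1, 123 and 44.1 CPM. In this group Lyz2 thus cannot tell myeloid RNA from lung RNA. Cd14, the gene of a monocyte surface protein and the other leading marker, was at 76.1, 74.0, 70.4, 121 and 107 CPM. These markers ran differently beside Tnf: Lyz2 was highest in replicate 1, which had the lowest Tnf, and Cd14 was highest in replicates 4 and 5, which had the highest Tnf. Without the 2 lung-rich libraries the rise of Tnf in BALB/c DTC over tumour was log2 3.91 ± 0.38, adjusted p = 1.47e-08, and with a myeloid marker covariate it was 3.71 ± 0.35, adjusted p = 3.57e-09. Of 7 alveolar macrophage markers, led by Chil3 and Ear2, DTC over tumour had 3 higher and 0 lower in BALB/c hosts (median 1.48). In NSG hosts 5 were higher and 0 lower (median 4.53). In macro-met over DTC 0 were higher and 3 lower in BALB/c (median -1.05), and 0 higher and 2 lower in NSG hosts (median 0.20). The part of myeloid cells in the Tnf level was not tested otherwise.

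**Figure D3:**
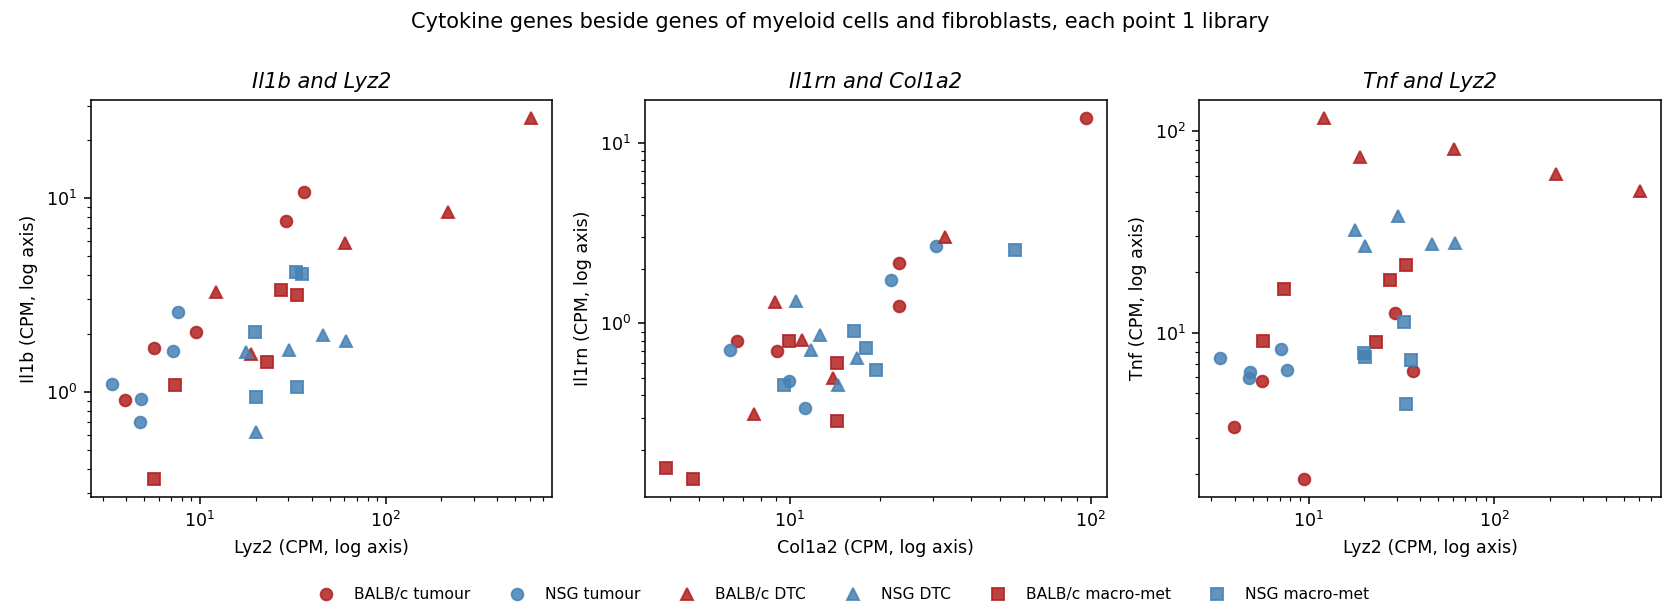
CPM of Il1b and Tnf beside Lyz2, a gene of the macrophage and monocyte list, and of Il1rn beside Col1a2, a fibroblast gene. Each of the 30 libraries is shown on log axes. Red is BALB/c, blue is NSG, and circles, triangles and squares are tumour, DTC and macro-met. The BALB/c DTC library with 610 CPM of Lyz2 had the highest Il1b (26.0 CPM) and the highest Sftpc (2230 CPM). Cd14, the other leading marker of that list, is not plotted. Within BALB/c DTC Cd14 was highest in the 2 libraries with most Tnf, and Ptprc was highest in the library with least Tnf.

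Il1a encodes IL-1α, an alarm cytokine that is active as its precursor. Il1a was in BALB/c hosts at 2.47, 6.20, 4.63, 2.75 and 2.84 CPM in tumours, 16.7, 5.80, 3.95, 25.3 and 8.06 in DTC and 0.177, 0.309, 0.544, 1.20 and 0.848 in macro-mets. DTC libraries were spread widely and overlapped those of tumours, with a log2 fold change of 1.66 ± 0.46, adjusted p = 0.00457. The drop in macro-mets relative to DTC was the largest of the 10 genes in that comparison, 19.3-fold (log2 -4.27 ± 0.52, adjusted p = 2.55e-07), and macro-mets were 6.08-fold below tumours (log2 -2.60 ± 0.49, adjusted p = 0.000141), with no overlap in either. In NSG hosts it was at 1.31, 0.864, 0.791, 1.25 and 1.97 CPM in tumours, 8.31, 3.18, 7.72, 4.52 and 7.86 in DTC and 0.516, 1.45, 0.619, 1.13 and 0.532 in macro-mets. NSG DTC was above NSG tumours by log2 2.35 ± 0.48, adjusted p = 0.000556, and NSG macro-mets were lower than NSG DTC (log2 -2.89 ± 0.49, adjusted p = 1.59e-05). With a covariate for lung and endothelial markers, the difference between DTC and tumours was no longer called in BALB/c (log2 0.69 ± 0.88, adjusted p = 0.578) or NSG hosts (log2 1.69 ± 0.72, adjusted p = 0.174). Over all genes this covariate left 5674 calls in place of 7357 in BALB/c and 776 in place of 4538 in NSG hosts. In BALB/c DTC the 7 alveolar macrophage markers summed to 105, 16.3, 6.56, 46.4 and 4.90 CPM, highest in replicates 1 and 4, as was Il1a. In NSG DTC they summed to 26.1, 15.3, 30.4, 51.8 and 16.6 CPM, highest in replicate 4, where Il1a was at 4.52 CPM. The part of alveolar macrophages in the Il1a level was not tested.

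Il1b encodes IL-1β, made mainly by activated myeloid cells as a precursor that caspase-1 cleaves. In BALB/c DTC it was at 26.0, 8.47, 1.57, 5.87 and 3.27 CPM, against 0.912, 1.68, 2.03, 10.7 and 7.58 in BALB/c tumours, a difference that was not called (log2 0.98 ± 0.68, adjusted p = 0.25). BALB/c macro-mets, at 0.355, 1.08, 1.42, 3.16 and 3.36 CPM, were called lower than DTC (log2 -2.26 ± 0.70, adjusted p = 0.0148), although the libraries overlapped. This call was lost without BALB/c DTC replicate 1 (log2 -1.33 ± 0.64, adjusted p = 0.132) and without both lung-rich libraries (log2 -0.91 ± 0.68, adjusted p = 0.381). In NSG hosts all 15 libraries lay between 0.625 and 4.17 CPM and no stage difference was called. Il1b was highest in the library with most Lyz2 and most Sftpc, although not with most Cd14. Over the 30 libraries its 3 most similar genes by Pearson r of log2 CPM were Ccrl2 (0.82), Lyz2 (0.75) and Chil1 (0.73). Of 10 neutrophil markers tested, 0 were higher and 2 lower in BALB/c macro-met over DTC (median log2 fold change -1.63). In BALB/c over NSG DTC 7 were higher and 0 lower (median 3.43). Where Il1b was not called, 5 were higher and 1 lower in BALB/c DTC over tumour (median 1.78). In NSG macro-met over DTC, also without an Il1b call, 6 were higher and 1 lower (median 2.27). The call of BALB/c macro-met below DTC was kept with the myeloid marker covariate and lost with the lung and endothelial covariate. The part of myeloid RNA in the Il1b result was not tested otherwise. The cells were sorted as CD45-negative.

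Il1rn encodes the secreted antagonist that blocks the IL-1 receptor. Its level was low: 0.158, 0.137, 0.605, 0.803 and 0.288 CPM in BALB/c macro-mets, against 0.703, 0.796, 1.25, 13.8 and 2.16 in BALB/c tumours, and the groups overlapped. The only edgeR call of Il1rn, BALB/c macro-met below BALB/c tumour (log2 -3.23 ± 0.80, adjusted p = 0.0023), was lost without tumour replicate 4 (-1.64 ± 0.66, adjusted p = 0.0563). That library also had the most Col1a2, a collagen gene of fibroblasts, at 96.4 CPM, against 6.66 to 23.1 in the other BALB/c tumours. Its fibroblast and pericyte marker sum did not stand apart (299 CPM, against 248 to 385), whereas its skeletal muscle sum (864 CPM, against 50.8 to 67.4) and its adipocyte sum (23.5 CPM, against 1.26 to 2.95) did. In BALB/c tumours Pdgfra alone was at 93.0 to 209 CPM and Dcn at 33.5 to 117. The fibroblast and pericyte sum therefore cannot show whether less abundant markers rose in 1 library. The 3 genes most similar to Il1rn over the 30 libraries were Col1a2 (r = 0.83), Igfbp5 (0.82) and Col3a1 (0.81). The 13 fibroblast and pericyte markers summed to 344 to 557 CPM in BALB/c macro-mets and 248 to 385 in BALB/c tumours, led by Pdgfra and Dcn, and Tcf21 was at 0 in tumours of both hosts. The part of fibroblasts, muscle or fat cells in the Il1rn result was not tested.

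Il33 encodes a nuclear alarm cytokine that signals through ST2 and is stored by epithelial and endothelial cells of barrier tissue, among them alveolar type II cells of the mouse lung. It was the only member called higher in macro-mets than in DTC. Il33 was in BALB/c hosts at 92.8, 69.2, 83.8, 96.4 and 89.1 CPM in macro-mets, against 33.0, 37.5, 32.3, 22.0 and 21.6 in DTC (log2 1.56 ± 0.29, adjusted p = 0.000164) and 24.3, 61.2, 14.1, 23.5 and 48.3 in tumours (log2 1.33 ± 0.29, adjusted p = 0.000765), with no overlap in either comparison. NSG macro-mets had 80.8, 74.6, 37.1, 48.2 and 63.1 CPM, against 41.5, 29.6, 54.6, 29.3 and 31.1 in NSG DTC and 18.9, 27.8, 13.0, 18.8 and 17.7 in NSG tumours. They were above tumours without overlap (log2 1.66 ± 0.30, adjusted p = 0.000117) and above DTC by a call near the threshold (log2 0.71 ± 0.29, adjusted p = 0.0472), which was lost under 6 of 12 other settings and without any 1 of 7 of the 10 libraries compared. NSG DTC was above NSG tumours by log2 0.95 ± 0.29, adjusted p = 0.0155, and this call was lost with GC and length offsets (log2 0.64 ± 0.26, adjusted p = 0.0681), with the lung and endothelial covariate (log2 0.66 ± 0.42, adjusted p = 0.394) and without NSG tumour replicate 3 or NSG DTC replicate 3. That covariate left 776 calls over all genes in this comparison in place of 4538.

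Markers of lung epithelium (14 tested) and endothelium (14 tested) also differed between these groups. In 3 of the comparisons where Il33 was called higher, both lists had more markers higher than lower. For BALB/c macro-met over tumour 8 lung markers were higher and 0 lower (median log2 fold change 2.25), and 5 endothelial markers were higher and 0 lower (median 1.24). For NSG macro-met over tumour the counts were 8 higher and 1 lower (median 2.70) for lung and 6 higher and 0 lower (median 1.98) for endothelium. For NSG DTC over tumour they were 8 higher and 1 lower (median 3.63) for lung and 10 higher and 1 lower (median 2.70) for endothelium. In BALB/c macro-met over DTC, by contrast, 0 were higher and 11 lower in each list, with Il33 higher. In NSG macro-met over DTC the lung list had 1 higher and 1 lower, and the endothelial list 1 higher and 2 lower. Lung marker sums in macro-mets were 75.2 to 110 CPM in BALB/c and 53.5 to 79.2 in NSG hosts. The 14 endothelial markers, led by Eng and Pecam1 and none at 0 throughout a group, summed in BALB/c hosts to 149 to 191 CPM at the tumour stage, 182 to 702 at the DTC stage and 196 to 263 at the macro-met stage. In NSG hosts these sums were 161 to 195, 160 to 195 and 198 to 254 CPM in the same stage order. In tumours the sums were mostly Eng, at 142 to 180 CPM in BALB/c and 147 to 186 in NSG hosts. Pecam1 was there at 1.08 to 7.04 and 0.544 to 4.78 CPM. In NSG DTC Eng was at 94.5 to 123 and Pecam1 at 9.91 to 15.4 CPM, so the sums can hide changes of less abundant markers. With the lung and endothelial covariate Il33 in macro-met over tumour was log2 1.11 ± 0.36, adjusted p = 0.0151 in BALB/c and 1.42 ± 0.38, adjusted p = 0.00585 in NSG hosts. The part of lung and endothelial cells in the Il33 level was not tested otherwise.

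Il6 encodes the acute-phase cytokine IL-6. It was low in all groups and was called in none of the 12 comparisons. In BALB/c DTC it was at 3.11, 0.974, 0, 0.250 and 0 CPM, so 2 libraries had no count while replicate 1 had 122 counts, and BALB/c tumours had 0.0897, 0.253, 0.0896, 0 and 0.964 CPM. The log2 fold change of BALB/c DTC over tumour was 1.60 ± 1.08, adjusted p = 0.239, with a 95% interval of -0.63 to 3.83. At this depth changes of several fold in Il6 could not be seen.

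Il11 encodes a cytokine of the IL-6 family that epithelial tumour cells and fibroblasts can make. Il11 was in BALB/c hosts at 6.20, 5.45, 7.21, 8.85 and 14.9 CPM in DTC, against 2.83, 0.651, 2.99, 0 and 1.50 in tumours. It was 5.37-fold higher in DTC (log2 2.43 ± 0.53, adjusted p = 0.000622), and the lowest DTC library was above the highest tumour library. In NSG hosts DTC had 11.9, 12.1, 10.6, 12.3 and 9.34 CPM and tumours 12.0, 9.37, 6.75, 11.0 and 13.3, with a log2 fold change of 0.10 ± 0.50, adjusted p = 0.91 (95% interval -0.92 to 1.13). NSG tumour and DTC libraries overlapped, and BALB/c tumours were 6.59-fold below NSG tumours (log2 -2.72 ± 0.54, adjusted p = 0.000438). Macro-mets had 0.709, 2.08, 3.30, 3.37 and 3.07 CPM in BALB/c and 4.39, 4.69, 3.72, 3.70 and 3.72 in NSG hosts, below DTC in both (log2 -1.77 ± 0.52, adjusted p = 0.01 and -1.47 ± 0.51, adjusted p = 0.0203). The NSG call was lost with no filter on low counts (log2 -1.43 ± 0.54, adjusted p = 0.0522) and with the myeloid covariate (log2 -1.10 ± 0.56, adjusted p = 0.11).

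Lif, which encodes leukemia inhibitory factor, was the most abundant of the 10 mRNAs by mean TPM. Lif was in BALB/c hosts at 322, 397, 343, 392 and 549 CPM in DTC, against 49.3, 39.7, 98.9, 113 and 94.3 in tumours, 5.07-fold higher without overlap (log2 2.34 ± 0.32, adjusted p = 1.39e-06). In NSG hosts DTC had 286, 375, 311, 419 and 271 CPM and tumours 390, 321, 450, 550 and 548, which differed by log2 -0.44 ± 0.30, adjusted p = 0.305 (95% interval -1.06 to 0.18). As for Il11, BALB/c tumours were 5.71-fold below NSG tumours with no overlap (log2 -2.51 ± 0.32, adjusted p = 1.22e-06). Macro-mets had 49.8, 117, 162, 242 and 157 CPM in BALB/c hosts (log2 -1.46 ± 0.31, adjusted p = 0.000565 over DTC) and 136, 164, 234, 201 and 102 in NSG hosts (log2 -0.99 ± 0.30, adjusted p = 0.00927). Against tumours the BALB/c and NSG macro-mets went in opposite directions, log2 0.88 ± 0.30, adjusted p = 0.0238 and -1.43 ± 0.31, adjusted p = 0.000845. The BALB/c call was lost with GC and length offsets (log2 0.50 ± 0.30, adjusted p = 0.193). It was also lost with no filter on low counts, with the lung and endothelial covariate and with these groups alone. Leaving out tumour replicate 1 or 2, or macro-met replicate 3, 4 or 5, also ended the call, with values down to log2 0.59 ± 0.30, adjusted p = 0.13 without macro-met replicate 4.

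Il23a joins the product of Il12b to form IL-23. Il23a was in BALB/c hosts at 33.1, 52.2, 36.1, 73.5 and 64.9 CPM in tumours, 93.0, 104, 115, 96.8 and 120 in DTC and 39.5, 41.1, 32.4, 41.1 and 34.5 in macro-mets. DTC was 2.03-fold above tumours (log2 1.02 ± 0.17, adjusted p = 2.21e-05) and macro-mets were below DTC (log2 -1.49 ± 0.17, adjusted p = 1.16e-07), both without overlap. NSG tumours had 116, 66.1, 124, 105 and 100 CPM, NSG DTC 110, 73.8, 89.4, 79.0 and 86.8 and NSG macro-mets 31.0, 31.8, 31.9, 25.7 and 24.8. NSG macro-mets were below DTC (log2 -1.59 ± 0.18, adjusted p = 1.82e-08) and below tumours (log2 -1.82 ± 0.18, adjusted p = 1.06e-08), again without overlap. The smaller BALB/c difference between macro-mets and tumours (log2 -0.46 ± 0.17, adjusted p = 0.0333) was lost under 6 of 12 other settings and when tumour replicate 2, 4 or 5 or macro-met replicate 3 or 5 was left out.

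Tslp (chr18:32815383-32819797, plus strand, GRCm38) encodes an epithelial cytokine that acts on dendritic cells and innate lymphoid cells. In NSG hosts Tslp was at 110, 55.9, 96.5, 61.3 and 74.7 CPM in DTC, against 57.0, 37.1, 36.3, 45.8 and 40.9 in tumours (log2 0.88 ± 0.20, adjusted p = 0.00152), and only the lowest DTC library lay within the tumour range. With the lung and endothelial covariate this call was lost (log2 0.73 ± 0.30, adjusted p = 0.15), as were most calls over all genes in this comparison (776 in place of 4538). NSG macro-mets had 13.4, 17.4, 7.27, 14.5 and 14.2 CPM, 5.96-fold below DTC (log2 -2.58 ± 0.21, adjusted p = 2.04e-10). In BALB/c hosts DTC had 53.5, 39.7, 47.0, 59.4 and 30.4 CPM and tumours 46.3, 64.3, 56.7, 49.8 and 65.3, a difference that was not called (log2 -0.30 ± 0.20, adjusted p = 0.233). BALB/c macro-mets had 18.6, 19.2, 21.6, 24.7 and 24.7 CPM, below DTC (log2 -1.08 ± 0.20, adjusted p = 0.000114) and below tumours (log2 -1.38 ± 0.20, adjusted p = 5.97e-06) without overlap. Tslp has a low GC content in its longest transcript (40.3%). With GC and length offsets the drop in macro-mets relative to DTC was log2 -0.80 ± 0.16, adjusted p = 0.000209 in BALB/c and -1.62 ± 0.16, adjusted p = 3.65e-09 in NSG hosts.

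The third question was how cytokine expression differed with the host at each site. Between tumours, Il1a and Il33 were called higher and Il11, Lif and Il23a lower in BALB/c than in NSG hosts, where 23.6% of all genes were called, 11% higher and 12.6% lower. Libraries did not overlap for 3 of the 10 genes (Il1a, Il11 and Lif), against 15.8% of all genes. Il1a averaged 3.78 ± 1.60 CPM in BALB/c tumours and 1.24 ± 0.471 in NSG tumours (SD, n = 5 each; log2 1.60 ± 0.47, adjusted p = 0.0126), but the call was lost with voom (log2 1.53 ± 0.60, adjusted p = 0.0588) and without the 4 libraries with fewest detected genes (log2 1.37 ± 0.58, adjusted p = 0.0919). Il23a averaged 52.0 ± 17.6 and 102 ± 22.4 CPM in BALB/c and NSG tumours (log2 -0.98 ± 0.17, adjusted p = 8.75e-05). Il33 averaged 34.3 ± 19.7 and 19.2 ± 5.35 CPM in BALB/c and NSG tumours (log2 0.84 ± 0.29, adjusted p = 0.0354), a call lost under 7 of 12 other settings and without any 1 of 6 of the 10 tumour libraries, for example without BALB/c tumour replicate 2 (log2 0.52 ± 0.27, adjusted p = 0.187).

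In DTC, Tnf and Il1b were called higher and Tslp lower in BALB/c than in NSG hosts, where 38.8% of all genes were called, 17.1% higher and 21.7% lower. Tnf alone had no overlap between the hosts, as did 31.6% of all genes. Tnf averaged 76.6 ± 25.0 CPM in BALB/c DTC and 30.4 ± 4.61 in NSG DTC (SD, n = 5 each), a log2 difference of 1.33 ± 0.32, adjusted p = 0.00151. With GC and length offsets the Tnf difference was log2 0.80 ± 0.31, adjusted p = 0.052 and missed the threshold. Il1b averaged 9.04 ± 9.84 CPM in BALB/c DTC and 1.54 ± 0.531 in NSG DTC (log2 2.55 ± 0.71, adjusted p = 0.00502), a call lost without the 2 lung-rich BALB/c libraries (log2 1.21 ± 0.68, adjusted p = 0.179) and with either marker covariate. Tslp averaged 46.0 ± 11.4 CPM in BALB/c DTC and 79.6 ± 23.0 in NSG DTC (log2 -0.79 ± 0.20, adjusted p = 0.00181), and with GC and length offsets the call was lost (log2 -0.30 ± 0.16, adjusted p = 0.156). Lif and Il23a, which separated the tumours of the hosts, were not called between their DTC (log2 0.27 ± 0.30, adjusted p = 0.516 and 0.27 ± 0.17, adjusted p = 0.227), with 95% intervals of -0.35 to 0.89 and -0.08 to 0.62.

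In macro-mets 0 of the 10 genes were called between BALB/c and NSG hosts by edgeR, where 2.64% of all genes were called, 1.88% higher and 0.76% lower. At an unadjusted p under 0.05 there were 3 (Tnf, Il23a and Tslp), and DESeq2 called 2 (Tnf and Tslp). Tslp was nearest to the threshold, at 21.8 ± 2.88 CPM in BALB/c macro-mets and 13.4 ± 3.73 in NSG macro-mets (SD, n = 5 each), without overlap (log2 0.71 ± 0.20, adjusted p = 0.0516). For 3 of the 10 genes (Il11, Il23a and Tslp) the libraries of the hosts did not overlap, against 6.98% of all genes.

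Whether the change between stages differed by host was tested with interaction terms, given as the BALB/c change minus the NSG change. For DTC over tumour, the BALB/c change lay above the NSG change for 4 genes and below it for 2, where 33.4% of all genes were called, 15% above and 18.4% below. The difference in log2 change was 2.78 ± 0.43, adjusted p = 2.17e-05 for Lif, 2.32 ± 0.72, adjusted p = 0.0134 for Il11, 1.53 ± 0.46, adjusted p = 0.0105 for Tnf and 1.25 ± 0.24, adjusted p = 0.000192 for Il23a. These 4 share the sign of this term, not of each comparison: Tnf was not called between tumours (log2 -0.20 ± 0.33, adjusted p = 0.691) and was called higher in NSG DTC than in NSG tumours, unlike the other 3. They are the members that carry the AU-rich nonamer. They are also the 4 with the highest GC content of the longest transcript (51.0 to 53.0%, against 39.3 to 46.3% in the other 6). Both were noted after the calls were known, with no test. The difference was -1.17 ± 0.28, adjusted p = 0.00162 for Tslp and -1.18 ± 0.41, adjusted p = 0.0254 for Il33, which were called higher in NSG DTC than in NSG tumours and not called in BALB/c hosts. The Il33 value was lost without any 1 of BALB/c tumour replicate 2, BALB/c tumour replicate 5 and NSG DTC replicate 3, for example -0.87 ± 0.38, adjusted p = 0.0824 without the first of these. With GC and length offsets 2 of the 6 calls remained, Lif (2.27 ± 0.43, adjusted p = 0.000277) and Il23a (0.75 ± 0.24, adjusted p = 0.0173). With these offsets Tnf was 0.92 ± 0.45, adjusted p = 0.131, Il11 1.75 ± 0.71, adjusted p = 0.063, Tslp -0.37 ± 0.22, adjusted p = 0.226 and Il33 -0.56 ± 0.36, adjusted p = 0.272.

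**Figure D4:**
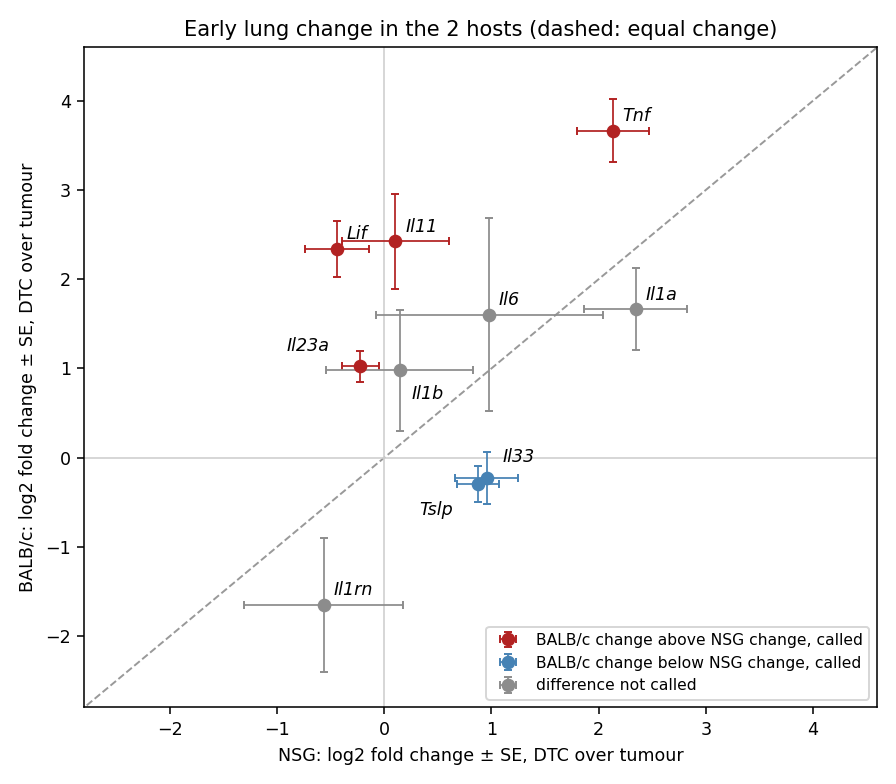
Log2 fold change ± SE of DTC over tumour in BALB/c hosts (vertical axis) and in NSG hosts (horizontal axis) for each of the 10 genes, with a dashed line where the hosts agree; red and blue points are genes whose interaction term was called. Lif and Il11 lie far above the line, near 0 on the NSG axis, and Tslp and Il33 lie below it.

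For macro-met over DTC, the change differed between hosts for Tslp (difference of log2 changes 1.50 ± 0.28, adjusted p = 0.000281) and Il1b (-2.93 ± 0.98, adjusted p = 0.025), where 28.1% of all genes were called, 16.6% with a positive and 11.6% with a negative difference. Tslp dropped less in BALB/c than in NSG hosts. The Il1b value was lost when BALB/c DTC replicate 1 or NSG macro-met replicate 2 or 4 was left out, and without the 2 lung-rich libraries it was -1.56 ± 0.91, adjusted p = 0.223. For macro-met over tumour, the change differed for Lif (2.31 ± 0.43, adjusted p = 0.00167) and Il23a (1.36 ± 0.24, adjusted p = 0.000989), where 5.23% of all genes were called, 3.53% with a positive and 1.7% with a negative difference.

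A cell senses a cytokine only through its receptor. Of 15 receptor genes listed, 14 passed the filter, and Il23r, the specific IL-23 receptor chain, had at most 0.165 TPM in any library. By group mean TPM, Tnfrsf1a, the main TNF receptor, was in BALB/c hosts at 126 ± 15.0 at the tumour stage, 126 ± 21.4 at the DTC stage and 163 ± 10.3 at the macro-met stage (SD, n = 5 each). Crlf2, the TSLP receptor chain, averaged 50.4 to 97.6 TPM in the 6 groups, while its partner Il7r averaged at most 0.217. For DTC over tumour, 1 receptor gene was called higher and 3 lower in BALB/c hosts (median log2 fold change -0.17), so 4 of 14 were called where 41.4% of all genes were. In NSG hosts 3 were higher and 4 lower (median -0.17), 7 of 14 where 25.5% of all genes were called. For macro-met over DTC, 5 were higher and 2 lower in BALB/c (median 0.26), 7 of 14 against 30.8% of all genes, and 9 higher and 4 lower in NSG hosts (median 0.66), 13 of 14 against 43.7%.

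Il1rl1, which encodes the IL-33 receptor ST2, was called higher in DTC than in tumours of both hosts (log2 4.79 ± 0.73, adjusted p = 5.51e-06 in BALB/c and 3.76 ± 0.69, adjusted p = 0.00019 in NSG). On the TPM scale it averaged 2.15 ± 0.883 in DTC and 0.0809 ± 0.0760 in tumours of BALB/c hosts, and 2.31 ± 0.917 in DTC and 0.147 ± 0.107 in tumours of NSG hosts (SD, n = 5 each). It was lower again in macro-mets than in DTC (log2 -4.50 ± 0.71, adjusted p = 1.49e-05 in BALB/c and -4.07 ± 0.70, adjusted p = 1.91e-05 in NSG), where its ligand gene Il33 was higher. Mast cells and other immune cells carry ST2, and the 7 markers of mast cells and basophils, led by Kit and Mcpt8, summed to 2.20 to 21.7 CPM in BALB/c DTC, 3.38 to 4.43 in NSG DTC, 1.01 to 8.11 in BALB/c tumours and 1.85 to 4.96 in NSG tumours. Fcer1a was at 0 throughout every group except BALB/c tumours. Median Kit was 1.32 CPM at the BALB/c DTC stage, above 0.0597 at the tumour and 0.628 at the macro-met stage. For NSG hosts these medians were 2.11, 0.0407 and 0.408. Median Mcpt8 was instead lower for DTC than for tumours, 0.916 against 1.14 (BALB/c) and 1.57 against 2.20 (NSG). Of 4 markers tested, DTC over tumour had 1 higher and 0 lower per host. Macro-met over DTC had 0 higher and 1 lower for BALB/c, and 1 higher and 0 lower for NSG. Endothelial and lung epithelial markers moved with Il1rl1 in both comparisons in BALB/c hosts. In NSG hosts they did so for DTC over tumour only. In BALB/c DTC over tumour 13 of 14 endothelial markers were higher (median log2 fold change 3.82), with 12 of 14 lung markers, and in NSG hosts 10 and 8 were. In BALB/c macro-met over DTC 11 of each list were lower (medians -2.52 for endothelium and -4.09 for lung). In NSG macro-met over DTC 2 endothelial markers were lower and 1 higher (median -0.67), and 1 lung marker was lower and 1 higher (median -0.02). The part of any of these cells in the Il1rl1 level was not tested.

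Lifr, the LIF receptor gene, was lower in BALB/c DTC than in BALB/c tumours (log2 -2.73 ± 0.43, adjusted p = 1.01e-05), where Lif was higher, and higher in BALB/c macro-mets than in DTC (log2 2.16 ± 0.42, adjusted p = 0.000227). Lifr was also higher in BALB/c than in NSG tumours (log2 2.59 ± 0.43, adjusted p = 4.21e-05), at 4.34 ± 1.92 and 0.710 ± 0.328 TPM. Il6ra, the IL-6 receptor, was higher in macro-mets than in tumours of both hosts (log2 1.08 ± 0.13, adjusted p = 2.37e-07 in BALB/c and 0.68 ± 0.13, adjusted p = 0.000171 in NSG). Il1r1, the signalling IL-1 receptor, averaged 36.0 ± 6.53 TPM in BALB/c DTC and 83.0 ± 9.85 in NSG DTC (log2 -0.96 ± 0.12, adjusted p = 5.67e-07). Il12rb1, which IL-23 and IL-12 share, was above NSG in BALB/c hosts at every site (log2 2.41 ± 0.26, adjusted p = 5.09e-08 in tumours and 1.50 ± 0.25, adjusted p = 0.000317 in macro-mets), and in DTC it averaged 36.5 ± 13.6 TPM in BALB/c and 7.69 ± 1.23 in NSG hosts (adjusted p = 3.83e-08).

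**Figure D5:**
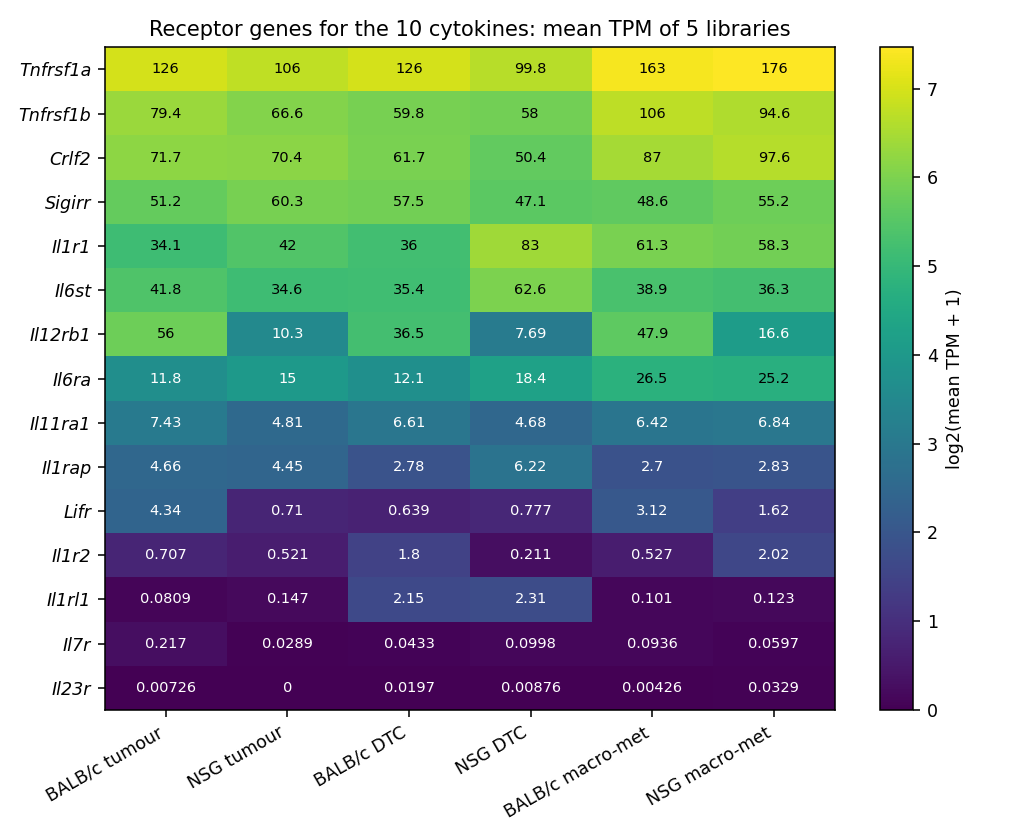
Mean TPM of 15 receptor genes (rows) in the 6 groups (columns, n = 5 each), with the colour on a log2(mean TPM + 1) scale and the mean printed in each cell. Tnfrsf1a has the highest means, up to 176 TPM in NSG macro-mets, and Il1rl1 stands out only in the DTC columns at 2.15 and 2.31 TPM.

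NF-kB genes, a list of 20 subunits, inhibitors, adaptors and the target Icam1, were all tested. In BALB/c DTC over tumour 13 were called higher and 2 lower, where 41.4% of all genes were called, with a median log2 fold change of 0.63 against -0.09 for all genes, while in NSG hosts 3 were higher and 0 lower, where 25.5% of all genes were called, with a median of 0.03. The examples with the smallest adjusted p in BALB/c hosts were Icam1, an adhesion gene (log2 2.54 ± 0.25, adjusted p = 5.22e-09), the subunit gene Nfkb2 (1.39 ± 0.16, adjusted p = 3.57e-08) and the inhibitor gene Nfkbia (1.81 ± 0.22, adjusted p = 1.84e-07). In BALB/c macro-met over DTC 1 was higher and 14 lower (median -0.74; 30.8% of all genes called), and in NSG hosts 3 were higher and 8 lower (median 0.02; 43.7% of all genes called). The change in DTC over tumour was greater in BALB/c hosts for 10 genes and smaller for 2, where 33.4% of all genes were called, with a difference of 2.19 ± 0.30, adjusted p = 4.81e-06 for Nfkbia. In BALB/c over NSG tumours 1 was higher and 5 lower (median -0.05), 6 of 20 where 23.6% of all genes were called, which is near the background share. The lower ones included the feedback inhibitors Tnfaip3 (log2 -2.78 ± 0.33, adjusted p = 6.23e-07) and Nfkbia (-1.71 ± 0.22, adjusted p = 1.09e-06).

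Decay factors of cytokine mRNA were a list of 12, of which 11 were tested. In BALB/c DTC over tumour 4 were called higher and 3 lower (median 0.18), 7 of 11 against 41.4% of all genes. Zfp36, which binds AU-rich elements and removes Tnf mRNA, was higher (log2 1.12 ± 0.24, adjusted p = 0.00043), as was Zc3h12a, which encodes a nuclease that cuts Il6 mRNA (1.19 ± 0.22, adjusted p = 0.000106). The roquin genes Rc3h1 (-1.18 ± 0.24, adjusted p = 0.000222) and Rc3h2 (-1.53 ± 0.29, adjusted p = 0.000127) were lower. In NSG DTC over tumour 3 were higher and 2 lower (median 0.02), 5 of 11 against 25.5% of all genes, and there Rc3h1 (0.82 ± 0.24, adjusted p = 0.01) and Rc3h2 (1.29 ± 0.29, adjusted p = 0.00141) were higher. In BALB/c over NSG tumours 3 were lower and 0 higher (median -0.13), 3 of 11 where 23.6% of all genes were called, which is near the background share. Among them were Zfp36 (log2 -1.11 ± 0.24, adjusted p = 0.00103) and Zc3h12a (-1.12 ± 0.22, adjusted p = 0.000423). GC and length offsets were not run for the pathway lists.

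STAT3 signalling and target genes, the pathway of the IL-6 family, were a list of 15, all tested. In macro-met over DTC 5 were higher and 0 lower in BALB/c hosts (median 0.11), 5 of 15 where 30.8% of all genes were called, which is near the background share. In NSG hosts 8 were higher and 3 lower (median 0.48), 11 of 15 where 43.7% were called. Socs3, a feedback inhibitor induced by STAT3, was higher in macro-mets of both hosts (log2 1.41 ± 0.23, adjusted p = 2.56e-05 in BALB/c and 2.31 ± 0.24, adjusted p = 1.01e-08 in NSG), and so was Stat3 (0.93 ± 0.14, adjusted p = 4.35e-06 and 0.98 ± 0.14, adjusted p = 7.91e-07). In DTC over tumour 2 were higher and 5 lower in BALB/c (median -0.26; 41.4% of all genes called), and 1 higher and 6 lower in NSG hosts (median -0.03; 25.5%). Osmr, the oncostatin M receptor gene, was lower in BALB/c DTC than in tumours (log2 -2.25 ± 0.28, adjusted p = 3.31e-07).

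IL-1 and TNF also need processing to be released, by caspases, pore proteins and sheddases. Of 16 such genes 15 were tested, and in BALB/c DTC over tumour 2 were higher and 4 lower (median 0.14), in NSG 3 higher and 0 lower (median 0.04). These are 6 of 15 where 41.4% of all genes were called and 3 of 15 where 25.5% were, both near the background share. Rhbdf2, a cofactor of the main TNF sheddase, was higher in BALB/c DTC than in tumours (log2 0.73 ± 0.14, adjusted p = 7.97e-05). Adam10, the gene of a different sheddase, was lower (-1.04 ± 0.27, adjusted p = 0.00277). Casp1, which cleaves the IL-1β precursor, was above NSG in BALB/c hosts in tumours (log2 1.85 ± 0.20, adjusted p = 4.07e-08), DTC (1.11 ± 0.19, adjusted p = 3.29e-05) and macro-mets (1.14 ± 0.19, adjusted p = 0.000372). Of 16 other cytokine genes of the same families 12 were found in the table and 9 were tested. Clcf1, another IL-6 family ligand, was higher in BALB/c DTC than in tumours (log2 0.78 ± 0.19, adjusted p = 0.00156) and lower in BALB/c than in NSG tumours (-1.31 ± 0.19, adjusted p = 7.02e-06), and Il18 was lower in BALB/c DTC than in tumours (-0.82 ± 0.18, adjusted p = 0.000529).

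Among the 45 pairs of the 10 genes, Pearson r of log2 CPM over the 30 libraries was positive in 33 and above 0.5 in 9. The highest values were 0.74 for Il1a with Tslp, 0.71 for Il11 with Lif and 0.70 for Il23a with Tslp, and the lowest was -0.62 for Il23a with Il33. These values describe 6 groups of 5 libraries, which share stage, host and GC trend. The gene most similar to Lif was Sik1 (0.97), followed by Dusp8 and Nfkbiz (0.94 each). Tnf was nearest to Stra6 (0.92), Il23a to Ovol1 (0.93), Tslp to Fastkd2 (0.94), Il33 to Thumpd1 (0.86), Il1a to Nppb (0.85), Il11 to Helq (0.85) and Il6 to Sparcl1 (0.65). Candidates were limited to tested genes whose average log2 CPM reached 1.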

How the data were processed

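The 30 RNA-seq libraries are of sorted 4T1-tdTomato cells. The authors deposited raw read counts by Ensembl ID and TPM values for the same genes. Trimmomatic 0.36 and STAR 2.5.2b with GRCm38/mm10 are listed in the submitters' processing notes; the counting tool, strand setting and annotation release are not given in the sources used here. Genes were filtered with filterByExpr by group (17774 of 49315 kept, 99.969% of counts) and scaled by TMM. The quasi-likelihood test of edgeR 4.0.16 (R 4.3.3, robust, 1 mean per group, 24 residual degrees of freedom) was fitted to all libraries, for 9 pairs of groups and 3 interaction terms. Calls needed an adjusted p (Benjamini-Hochberg, all tested genes) below 0.05. Log2 fold changes are given ± SE. Reads without molecular identifiers are not independent molecules, so library spread sets the precision.

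Alternatives were RLE scaling, DESeq2 1.42.0, voom in limma 3.58.1, no filter, limma on log2(TPM + 1) and log2(TPM + 0.1), GC and length offsets from GENCODE M21, marker covariates, the compared groups alone, and libraries left out. The script was tested on simulated data. The members, the 6 pathway lists and the 14 marker lists were chosen with earlier results of these data known. All 10 members are named. From a pathway list, at most 4 called genes of smallest adjusted p per comparison, from a marker list the 2 most abundant with Ptprc, Sftpc and Pecam1, and for each member the 3 genes of highest Pearson r could be named. Col1a2 and the markers at 0 are named beside a result. The 15 receptor genes are shown by level. Genes with predicted or clone names were not candidates for the similarity rule. Sequences are from RefSeq and the GRCm38 genome; the AU-rich motif was chosen after the calls were seen.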

Additional observations from a re-analysis of the deposited data

Results flagged for a closer look

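Within groups of 5 libraries, 5 of 60 sets of values held a library that stood far from the others, where chance alone gives about 3.0. Il1b was at 26.0 CPM in BALB/c DTC replicate 1, with the next library at 8.47, and this library also had the most Lyz2 and Sftpc of its group. Il1b was at 0.625 CPM in NSG DTC replicate 5, below the next library at 1.62. Il1rn was at 13.8 CPM in BALB/c tumour replicate 4, with the next at 2.16, and at 2.56 CPM in NSG macro-met replicate 3, with the next at 0.910. Both of these libraries had the highest Col1a2 of their group and stood apart in skeletal muscle markers (864 and 344 CPM in sum) and adipocyte markers (23.5 and 10.8 CPM). Their fibroblast and pericyte sums did not stand out as high (299 and 360 CPM, the second the lowest of its group). These sums are led by Pdgfra and Dcn and cannot show a rise of less abundant markers. Il6 was at 0.964 CPM in BALB/c tumour replicate 5, with the next at 0.253.

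The change between stages differed by host for 6 genes in DTC over tumour, given as the BALB/c minus the NSG log2 change: Tnf 1.53, Il11 2.32, Lif 2.78, Il23a 1.25, Tslp -1.17 and Il33 -1.18. In macro-met over DTC the differences were -2.93 for Il1b and 1.50 for Tslp. In macro-met over tumour they were 2.31 for Lif and 1.36 for Il23a. All are interaction terms of the edgeR fit with an adjusted p under 0.05.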

How the results depend on the processing

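No paired analysis was possible because the labels give no replicate numbers that the groups share. Under the 12 other settings 101 to 118 of 120 log2 fold changes per setting kept their direction and side of the threshold, and 1447 of 1500 did when 1 library was left out. Reversed values came only with marker covariates. With the lung and endothelial covariate Il1b (-3.31 ± 0.98) and Il6 (-6.32 ± 2.15) were lower in BALB/c DTC than in tumours, and Il6 was higher in BALB/c macro-mets than in DTC (3.75 ± 1.38). With the myeloid covariate Il1rn was lower in NSG macro-mets than in NSG DTC (-1.59 ± 0.55) and lower in BALB/c DTC than in NSG DTC (-1.54 ± 0.54). The cause was not tested.

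The number of the 10 genes called changed as follows. NSG DTC over tumour had 4, and 1 with the lung and endothelial covariate (776 of all genes called in place of 4538). BALB/c over NSG tumour had 5, and 3 with voom. BALB/c over NSG macro-met had 0. There it was 2 with DESeq2 (924 of all genes in place of 470) and 1 each with RLE, log2(TPM + 1), log2(TPM + 0.1), the myeloid covariate, without the 2 lung-rich libraries, and within these groups alone (887). With GC and length offsets it stayed at 0 while 708 of all genes were called. The interaction for DTC over tumour had 6, and 2 with GC and length offsets. The interaction for macro-met over DTC had 2, and 1 each with voom, log2(TPM + 0.1), either marker covariate and without the 2 lung-rich libraries; with GC and length offsets it was 3 while 3287 of all genes were called in place of 5002. The interaction for macro-met over tumour had 2, and 4 with DESeq2 (1612 of all genes in place of 929; 608 with the myeloid covariate). With 1 library left out the counts ran from 5 to 6, 7 to 8 and 5 to 7 in the BALB/c stage comparisons (DTC over tumour, macro-met over DTC, macro-met over tumour), and from 3 to 4, 6 to 7 and 4 to 5 in the NSG ones. They ran from 4 to 6 between tumours, 3 to 4 between DTC and 0 to 1 between macro-mets of the hosts, and from 5 to 6, 1 to 2 and 2 to 3 for the interactions. Leaving out the 4 libraries with fewest detected genes was added after seeing the data and changed 5 of 120 calls. Depth limits Il6 and Il1rn most, with at most 122 and 629 counts in a library.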
